A study of Arabidopsis thaliana with 28 samples.

Results

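Arabidopsis thaliana roots (ecotype col2 in the labels) kept for 48 h under 1% oxygen were compared with roots kept for 48 h under 21% oxygen, the oxygen content of normal air. The arrays were chosen by their titles, which gave 2 arrays at 1% (replicate letters A and F) and 3 at 21% (letters A, B and F), 5 of the 28 arrays of the series. The seedlings had grown on upright agar plates with sucrose, and both groups stood in continuous darkness for the whole treatment, under a gas stream with 350 ppm CO2 and nitrogen as the rest. Only the root was harvested, each array took biotin-labelled RNA of 1 sample, and the labels do not say what a letter stands for or whether roots of several plants were pooled. Letters A and F each occurred at both oxygen levels, so that each gave a paired difference, 1% minus 21%, on log2(signal + 6). The remaining 21% array, letter B, had no partner at 1%. Arrays kept for 48 h at 4% or 8% oxygen, and arrays kept for 2 h at 1% or 21%, were used beside this comparison.

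When oxygen falls, plant cells can no longer run mitochondrial respiration at full rate, and ATP is made increasingly by glycolysis with fermentation to ethanol and lactate. In Arabidopsis the response is driven by group VII ethylene response factors, transcription factors that are degraded through the N-degron pathway while oxygen is present and persist when it is scarce. Their targets include a core of genes raised in roots and shoots alike, among them fermentation enzymes and many small proteins whose function is not known.

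The signal of an array is a linear fluorescence intensity per probe set, scaled so that the trimmed mean was 100.01 on every array. Brightness differed beyond that scaling, since the 3 arrays of letter B at 48 h, 1 of them a 21% array, had maximum signals of 11589 to 16530 against 3774 to 6389 on the other 25. The share of values under 6 was 24.3% on the 1% array A and 19.6% on the 1% array F, against 22.1%, 14.3% and 20.2% on the 21% arrays A, B and F. The arrays carried no detection calls, so a low signal cannot be called absent. The numbers of arrays limit the precision of every value, and where nothing in the labels says that letters are separate cultures, the p-values measure only the spread between these samples.

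On the low-oxygen response list, the median level of the 1% array F lay below those of both 4% arrays. The 1% arrays also differed on other lists, given below. The list holds 48 loci known from the literature as raised by low oxygen, but it was drawn up with earlier results of these data known. Its direction is therefore not independent evidence. The same holds for the other lists below, some of which were added after the files were seen. The low-oxygen response list had 25 members with a named probe set. The median level of these 25, as log2(signal + 6), was 9.50 on the 1% array A and 6.86 on the 1% array F. It was 7.62 and 8.39 on the 4% arrays B and F, between 6.57 and 7.003 on the 3 arrays at 8%, and 6.44, 6.54 and 6.28 on the 21% arrays A, B and F. All 25 members were lower on the 1% array F than on the 4% array F, and 17 were lower than on both 4% arrays, while 20 were higher on the 1% array A than on both. The shares of all genes in these comparisons with the 4% arrays were not computed. On the 1% array A 23 of 25 members lay above all 3 control arrays, against 17.4% of all genes, and on the 1% array F 15 did, against 16.2% of all genes. The main counts, the called genes and the lists that lead the results are therefore also given without 1 or the other 1% array. In RNA of whole roots, fewer cells of a type and less RNA per cell cannot be told apart.

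**Figure D1:**
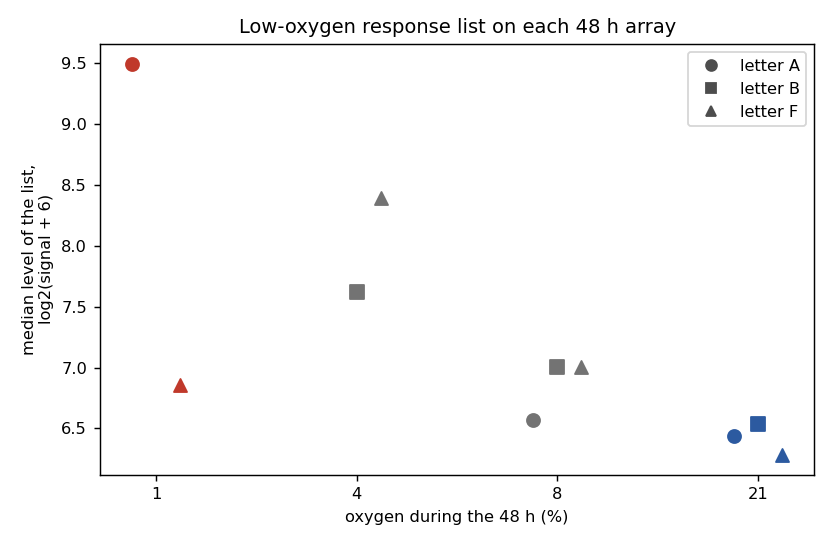
Median level, log2(signal + 6), of the 25 named members of the low-oxygen response list on each 48 h array, by oxygen level (%) on an evenly spaced axis, with the shape of a point giving the replicate letter. The 1% arrays lie far apart, A at 9.50 and F at 6.86, and the 1% array F lies below both 4% arrays and within the range of the 8% arrays.

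Linear models over all 28 arrays called 10 genes higher and 3 lower at 1% than at 21% (limma, Benjamini-Hochberg adjusted p under 0.05 over all probe sets tested). These were 0.0749% and 0.0225% of the 13355 genes. An unadjusted p under 0.05 was held by 699 genes. Without any change, a share of 0.05 of genes falls there on average. In all 13, both 1% arrays lay beyond all 3 control arrays, which was so for 3.35% of all genes on the higher side and 9.3% on the lower side. The calls were made from these same arrays, so this too is no separate support for them. When the letter entered the fit as a block, 108 genes rose (0.809%) and 197 fell (1.48%), all 13 among them. In all 305 of these the paired differences of A and F had the same sign, where 50.1% of all genes did. The block fit favours genes whose pairs agree, so this is no separate support for the calls. In the fit without the block, the counts depended on single arrays. Without the 1% array F 31 genes were higher and 26 lower, without the 1% array A 3 were higher and 0 lower (841 had an unadjusted p under 0.05), and without any single control array 4 were higher and 1 to 3 lower.

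Of the 10 raised genes, 7 were members of the low-oxygen response list, and all 7 stood higher on the 1% array A than on the 1% array F. AT3G03270, a locus of the universal stress protein list, had a signal of 3110.0 and 1382 on the 1% arrays A and F, against 172.8, 148.7 and 258.1 on the 21% arrays A, B and F. Both 1% arrays were above all controls. The log2 fold change was 3.42 ± 0.355 (SE), an increase of 10.7-fold (limma adjusted p = 4.27e-05), and the call held with any 1 of the 5 arrays left out, at a log2 fold change of 2.84 without the 1% array A and 4.01 without F.

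AT4G33560 had a signal of 477.3 and 57.9 on the 1% arrays A and F, against 1.27, 3.64 and 1.79 on the 21% arrays. It was near the bottom of the scale in normal air and clearly measured at 1%. Its log2 fold change was 4.43 ± 0.586 (SE, limma adjusted p = 0.000953), and of the fits with 1 array left out it missed the threshold in that without the 1% array A (log2 2.97, adjusted p = 0.0547).

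AT3G29970 had a signal of 1991 and 145 on the 1% arrays A and F, against 3.27, 27.8 and 5.45 on the 21% arrays A, B and F. It had the largest paired difference of all 13 genes in letter A, 7.75, and one of 3.72 in letter F. The fold change was 35.9 on the scale with the pseudocount (log2 5.16 ± 0.862 SE, limma adjusted p = 0.0199). With the 1% array A left out it was 3.30 on the log2 scale, and with F left out 7.03 (limma adjusted p of 0.387 and 0.000211), and the call was also lost without the 21% array A or F (adjusted p of 0.0908 and 0.0824).

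AT5G10040 differed most between the pairs among the called genes. Its signals at 1% were 1082 in A and 40.9 in F, against 4.58, 3.88 and 7.16 in air, and its paired differences were 6.68 and 1.83. The groups did not overlap, and the log2 fold change was 4.34 ± 0.765 (SE, limma adjusted p = 0.0304). It was 2.075 without the 1% array A (adjusted p = 0.314) and 6.61 without F.

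AT4G10270 had a signal of 685.9 and 104.2 at 1%, against 12.0, 18.4 and 9.55 at 21%. AT3G27220 had 196.3 and 39.8 at 1%, against 20.5, 19.2 and 16.7 at 21%. AT4G27450, the brightest of the set, had 4423 and 2242 at 1%, against 799.1, 838.9 and 1388 at 21%. In each of these 3 genes the 1% array F lay nearer to the controls than the 1% array A did. Their log2 fold changes were 3.86 ± 0.737, 1.96 ± 0.363 and 1.68 ± 0.314 (SE), with limma adjusted p of 0.0487, 0.0412 and 0.0412. AT4G10270, AT3G27220 and AT5G10040 passed in 1 of the 5 fits with an array left out, that without the 1% array F. Without the 1% array A the log2 fold changes of AT4G10270 and AT3G27220 were 2.54 and 0.89 (limma adjusted p of 0.581 and 0.406). AT4G27450 had 1.19 without the 1% array A (adjusted p = 0.52), and its call was also lost without the 21% array A or B (adjusted p of 0.143 and 0.207).

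**Figure D2:**
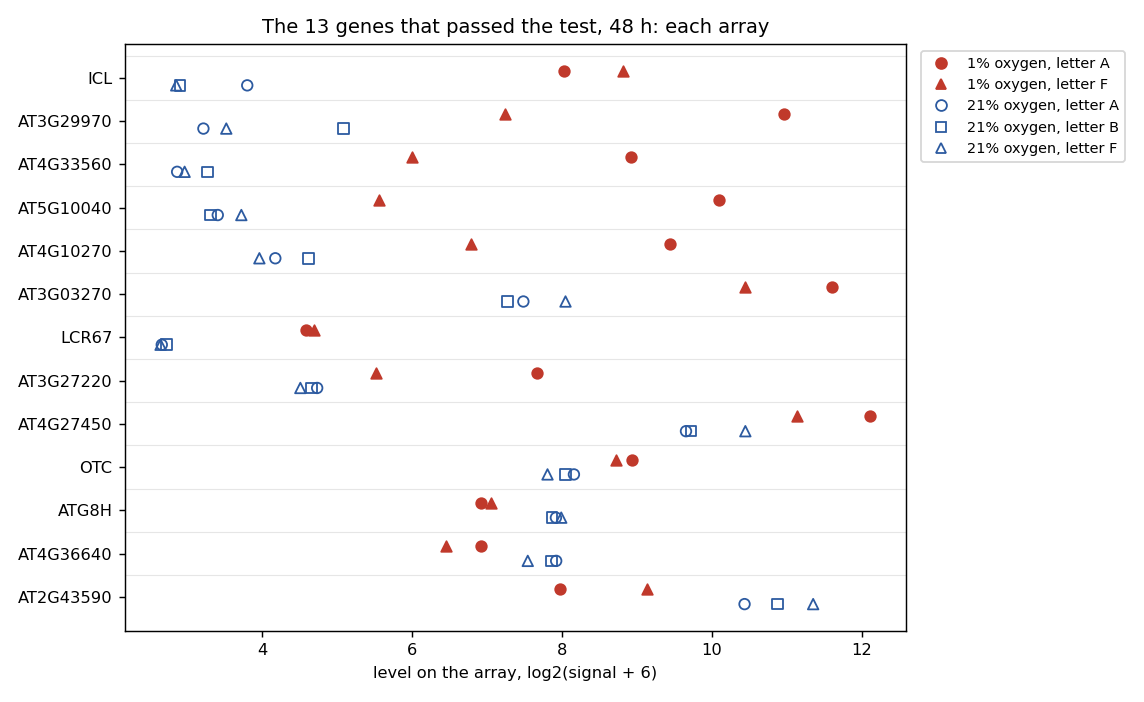
Level, log2(signal + 6), on each of the 5 arrays for the 13 genes called at 1% against 21% after 48 h, with filled red points for the 1% arrays above open blue points for the 21% arrays, and the shape giving the letter. All 1% points lie beyond all 21% points in each gene, to the right in the upper 10 genes and to the left in the lower 3.

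The other 3 raised genes were outside the low-oxygen response list. ICL, which encodes isocitrate lyase, the entry enzyme of the glyoxylate cycle that lets seedlings turn stored fat into sugar, had a signal of 254 and 442.2 at 1%, against 7.90, 1.47 and 1.21 at 21%. It was barely above the bottom of the scale in air and mid-range at 1%, and unlike the low-oxygen list members it stood higher in letter F than in A, with paired differences of 4.23 and 5.96. Its log2 fold change was 5.23 ± 1.014 (SE, limma adjusted p = 0.0498), the largest of the 13, and no fit with 1 array left out kept the call (adjusted p of 0.228 and 0.135 without the 1% array A and F). With the letter as a block its adjusted p was 0.00289 by limma. Of the 20 loci of the fatty acid breakdown and glyoxylate cycle list, 2 others were named. AIM1, an enzyme of peroxisomal fatty acid breakdown, fell with the letter as a block (log2 -0.54 ± 0.116 SE, limma adjusted p = 0.0262), with signals of 311.3 and 331 at 1% against 445.4, 453.9 and 523.4 at 21%. PPDK, pyruvate orthophosphate dikinase, did not pass with or without the block.

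LCR67, also listed as the plant defensin PDF1.1, had a signal of 17.9 and 19.7 at 1%, against 0.304, 0.579 and 0.235 at 21%. The 5 values formed 2 tight groups, and the paired differences were alike, 1.92 in A and 2.04 in F. Its log2 fold change of 1.96 ± 0.204 (SE, limma adjusted p = 4.27e-05) is dominated by the pseudocount at these signals, and the call held with any 1 array left out. Of the 15 genes found by symbol for the list of defensins and small cysteine-rich proteins, LCR67 was the only one raised. The search matched symbols only, PDF1A among them, so not all 15 need belong to this family. PDF2.1 fell with the letter as a block (log2 -2.01 ± 0.357 SE, limma adjusted p = 0.00986), and its signals of 35.5 and 135 at 1% overlapped those of 356.1, 58.5 and 285.9 at 21%.

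OTC, ornithine carbamoyltransferase of arginine synthesis, had the smallest increase of the 10. Its signal was 482.4 and 416.9 at 1%, against 279.5, 257.8 and 217.6 at 21%. Both 1% arrays were above every control, and the log2 fold change was 0.83 ± 0.148 (SE, limma adjusted p = 0.0318). The call was lost without the 1% array A (adjusted p = 0.343) and without the 21% array B or F (adjusted p of 0.138 and 0.123), and missed the threshold with quantile normalization (adjusted p = 0.065). Of the 5 named loci of arginine and proline metabolism, 1 other, AT5G10920, rose with the letter as a block (log2 0.64, limma adjusted p = 0.0485), and the list's median was 0.11 against -0.11 for all genes.

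Among the 3 lowered genes the largest change was that of AT2G43590, a locus of the class IV chitinase list, enzymes that cut the chitin of fungal walls. Its signal was 244.3 and 557.9 at 1%, against 1378, 1869 and 2605 at 21%. The highest 1% array lay well under the lowest control, and both pairs fell alike, with differences of -2.47 in A and -2.21 in F. The log2 fold change was -2.33 ± 0.301 (SE, limma adjusted p = 0.000851), and the adjusted p was 0.0547 without the 1% array A. With the letter as a block 3 of the 8 named chitinases of this list fell and 0 rose, where 1.48% and 0.809% of all genes did. AT2G43580 had signals of 1.21 and 3.86 at 1%, against 10.6, 20.2 and 25 at 21%, and CHI, annotated as a chitinase, had 272 and 417.4 at 1%, against 434.9, 670.4 and 1647 at 21%. Their log2 fold changes with the block were -1.40 and -1.23 (limma adjusted p of 0.00433 and 0.0266). The list's median log2 fold change was -0.44 (all genes -0.11), and all 8 members were below 0 in letter A and 5 in letter F, as were 7499 and 6309 of all 13355 genes. Without the 1% array A the list's median was 0.19, and without the 1% array F it was -1.36.

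ATG8H, a ubiquitin-like protein of the autophagosome, had a signal of 115.3 and 126.1 at 1%, against 235.7, 226.9 and 247.9 at 21%. The groups were tight and did not overlap, and the paired differences were -0.99 in A and -0.94 in F. Its log2 fold change was -0.94 ± 0.181 (SE, limma adjusted p = 0.0498), which no fit with 1 array left out kept under the threshold (adjusted p of 0.381 and 0.0615 without the 1% arrays A and F). With the block the adjusted p was 0.00903. It was the only one of 17 named autophagy genes to pass in either direction, with or without the block, and the median of the list was -0.02 (all genes -0.11). AT4G36640 had 114.3 and 81 at 1%, against 236.2, 225.9 and 180.2 at 21%. Its log2 fold change was -1.10 ± 0.194 (SE, limma adjusted p = 0.0304). Of the 5 arrays, only leaving out the 21% array F kept the call, with adjusted p of 0.0508 and 0.129 without the 1% arrays A and F, and it was also lost with each array centred on its median (adjusted p = 0.163).

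As a group, the 25 named members of the low-oxygen response list had a median log2 fold change of 1.62 at 1% against 21%, where all genes had -0.11. Of these members 7 rose and 0 fell, and 13 rose with the letter as a block. The list was drawn up with earlier results of these data known, so its direction is not independent evidence. In letter A all 25 members were above 0, with a median difference of 2.34 and 20 of them at least 2-fold up, where 43.8% of all genes were above 0 and 1.27% at least 2-fold up. In letter F 17 were above 0, with a median of 0.50 and 8 at least 2-fold up, where 52.8% and 1.6% of all genes were. Every member had a larger difference in A than in F, as did 5825 of all 13355 genes. Without the 1% array F 16 of the 25 passed with a median of 2.50, and without the 1% array A 1 passed with a median of 0.67.

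The members added by the block were TIL, a temperature-induced lipocalin, AT2G17850, AT4G24110, AT5G44730, AT5G66985 and AT4G17260. TIL had a signal of 2089 and 642.5 at 1%, against 407.4, 260.4 and 379.3 at 21%. AT2G17850 had 1541 and 62.8 at 1%, against 15.4, 34 and 17.8 at 21%, and AT4G24110 had 327.8 and 58.2 at 1%, against 17.1, 9.75 and 13.1 at 21%. In these 3, every 1% array was above every control, and for AT2G17850 and AT4G24110 the log2 fold changes with the block were 3.67 ± 0.807 and 2.76 ± 0.524 (SE, limma adjusted p of 0.0309 and 0.0159). PDC2, a pyruvate decarboxylase of ethanol fermentation, had 778.6 and 178 at 1%, against 160.9, 127.8 and 112.4 at 21%, and did not pass without or with the block (limma adjusted p of 0.401 and 0.0785). Of the 11 loci of the fermentation list 3 were named, and the only one to pass, with the block, was AT4G17260, at 136.2 and 104 against 80.7, 87 and 71.7.

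Other members were high in letter A and near or within the control range in letter F. AT3G10040, listed in RefSeq as HRA1, HYPOXIA RESPONSE ATTENUATOR1, a transcription factor that restrains the low-oxygen response, had a signal of 361.7 on the 1% array A and 18.3 on the 1% array F, against 36, 13.8 and 21.2 on the 21% arrays. The 1% array F lay inside the control range, and the gene did not pass (log2 1.74 ± 0.701 SE, limma adjusted p = 0.859). AT1G33055 had 1983 and 520.7 at 1%, against 334.9, 183.2 and 562.8 at 21%, and AT1G74940 had 716 and 109.9 at 1%, against 185, 140.3 and 155.8 at 21%. In both, only the 1% array A lay outside the control range on the higher side. CML38, a calmodulin-like protein, had 347.8 and 67.5 at 1%, against 30.3, 8.97 and 31 at 21%, without overlap, and reached limma adjusted p of 0.25 without and 0.0633 with the block. The lowest fold changes of the list were those of FHL (log2 -0.30), AT1G05575 (0.21) and AT5G42200 (0.24), which did not pass.

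**Figure D3:**
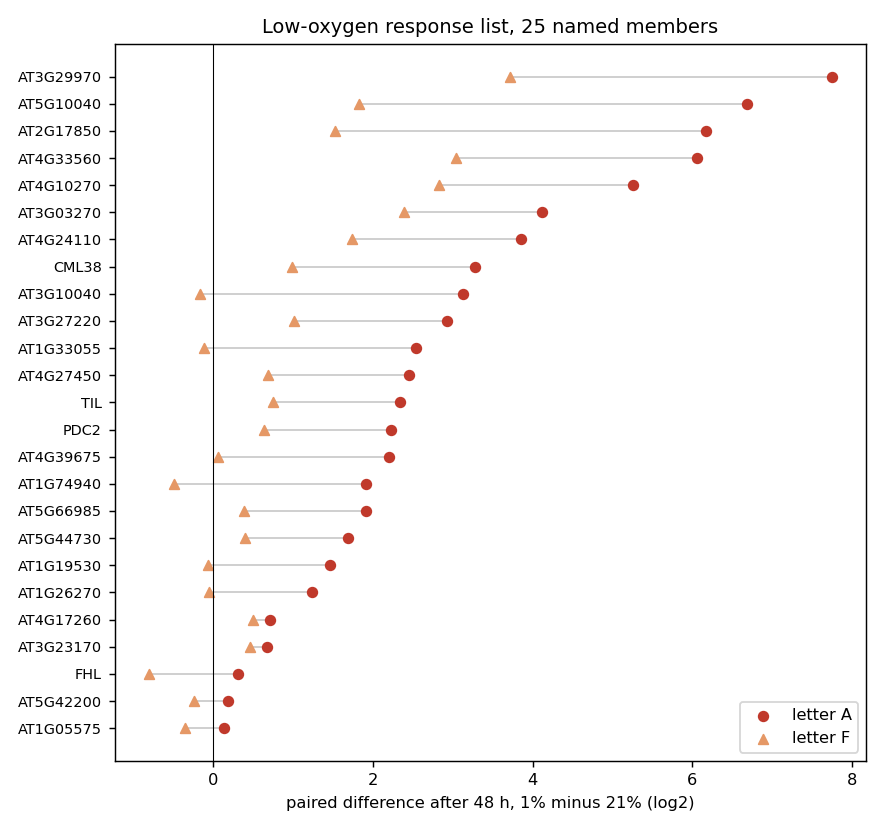
Paired difference after 48 h, 1% minus 21% (log2), of each of the 25 named members of the low-oxygen response list, with circles for letter A and triangles for letter F, ordered by letter A. All 25 circles lie right of their triangle and right of 0, and 8 triangles lie left of 0.

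Several of these genes were also raised after 2 h at 1% oxygen, where 46 genes were higher than in air (0.344% of all genes, limma). Of the 10 genes raised after 48 h, 6 were also among those 46, which is 60.0% of the 48 h genes and 13% of the 2 h genes. With the block at 48 h 14 genes were shared, 13% of the 48 h genes and 30.4% of the 2 h genes. The median log2 fold change of the low-oxygen list was 2.88 after 2 h and 1.62 after 48 h. The level of the list was 9.97 and 9.996 on the 2 h arrays at 1%, above both 48 h arrays.

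The difference between the responses to 1% after 48 h and after 2 h was itself tested, and 1 gene was called higher (0.00749%) and 6 lower (0.0449%) after 48 h. Of these 6, 4 belonged to the low-oxygen list. AT3G23170 had a signal of 34 and 50.4 after 48 h at 1%, against 19, 15.1 and 34.9 after 48 h in air, and of 382.9 and 505.1 after 2 h at 1%, against 10.4, 18.2 and 25.8 after 2 h in air. It stood far above the controls only in the 2 h arrays, and its response was smaller after 48 h by a log2 difference of -3.49 (limma adjusted p = 0.00368). AT5G44730 had 206.2 and 88.5 after 48 h at 1%, against 59.5, 82.1 and 65.7 in air, and 998.4 and 1087 after 2 h, against 72.4, 67.9 and 55.1. For AT4G17260, AT3G27220 and AT5G44730 the differences of response were -2.01, -2.83 and -2.96 (limma adjusted p of 0.003, 0.0439 and 0.003). AT4G30380, an expansin-like gene listed as EXLB2, had 74.1 and 58.9 after 2 h at 1% and signals under 3 on all 5 arrays after 48 h. AT2G43590 did not differ measurably after 2 h (log2 0.0014, limma adjusted p = 0.999), with a difference of -2.33 (adjusted p = 0.0439). LCR67 was the gene with the larger response after 48 h, by 1.71 (limma adjusted p = 0.0232). With the block 13 genes were higher and 50 lower, the 7 among them.

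The 4% arrays share their 21% controls with the 1% arrays, so their values are set side by side only. Against air, 5 genes were higher at 4% (0.0374%), and all 5 were among the 10 raised at 1%. Their log2 fold changes at 1% and at 4% were 4.43 and 5.0001 for AT4G33560, 3.86 and 4.99 for AT4G10270, 1.96 and 2.47 for AT3G27220, 3.42 and 2.70 for AT3G03270, and 1.96 and 1.88 for LCR67. The median of the low-oxygen list was 1.62 at 1% and 1.58 at 4%. Set directly against 4%, without shared controls, 0 genes were higher at 1% and 1 was lower (0.00749%, limma), with 646 genes under an unadjusted p of 0.05. The lower gene was AT1G54070, with signals of 0.913 and 1.19 at 1%, against 11 and 7.88 at 4%, all near the bottom of the scale. Its call was lost with the block (limma adjusted p = 0.216). Without the 1% array F 5 genes were higher and 11 lower, and without the 4% array F 4 were higher and 58 lower.

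With the letter as a block, the raised genes outside the low-oxygen list were led by ICL, LCR67, AT2G47710 and AT3G55720. AT2G47710, of the universal stress protein list, had a signal of 1828 and 1062 at 1%, against 376.8, 248 and 402.1 at 21%, with no overlap, and its log2 fold change with the block was 1.77 ± 0.188 (SE, limma adjusted p = 0.000357). AT3G55720 had 29.4 and 10.1 at 1%, against 2.02, 1.59 and 1.09 at 21%, and its 4% arrays were at 1.46 and 2.103. Of the 17 named universal stress proteins 3 rose and 1 fell with the block, where 0.809% and 1.48% of all genes did. The third riser, AT3G11930, had 3424 and 1865 at 1%, against 1059, 1005 and 1207 at 21%, and AT3G25930 fell (log2 -0.70, limma adjusted p = 0.0364). The median of this list was 0.05 (all genes -0.11). It was added after the files were seen, so its counts are not independent evidence. Of all 108 raised genes 61 had both 1% arrays above all controls, and 26 were at least 2-fold up.

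The genes lowered with the block numbered 197, of which 104 had both 1% arrays below all controls and 63 were at least 2-fold down. AT4G10280, whose locus overlaps the end of the raised AT4G10270 in the RefSeq annotation, had a signal of 1.87 and 39.2 at 1%, against 66, 78.2 and 111.6 at 21%, and its log2 fold change was -2.24 ± 0.308 (SE, limma adjusted p = 0.0022). CCL, listed as CCR-like, had 71.5 and 189.2 at 1%, against 279.1, 335.9 and 868.8 at 21%, and AT1G70880 had 76.8 and 109.4 at 1%, against 318.1, 157.9 and 457.9 at 21%. Both lay below all controls and fell by nearly the same amount in the pairs, by 1.88 and 2.16 in A and F for CCL and by 1.97 and 2.01 for AT1G70880 on the log2 scale. AT2G43550, AT4G38690, AT5G62550 and AT5G39520 also lay below all controls, with log2 fold changes with the block of -2.05, -2.06, -1.74 and -2.08. AT1G62510 and AT1G78110 were called with the block and not without it, and in both the 1% signals overlapped those of the controls. AT1G62510 had 1.75 and 102.5 at 1%, against 24.7, 62 and 163.8 at 21%. Its paired differences were -1.99 in A and -0.65 in F. AT1G78110 had 31.5 and 2.48 at 1%, against 41.5, 13.1 and 70.7 at 21%, with paired differences of -0.34 and -3.18. The fit with the block used all 28 arrays, not these pairs alone.

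Class III peroxidases, secreted enzymes that use hydrogen peroxide to cross-link or loosen cell walls, fell more often than they rose with the block, 7 against 1 of 55 named members, beside 1.48% and 0.809% of all genes. AT2G39040 had a signal of 5.66 and 15.7 at 1%, against 34.6, 32.7 and 49 at 21% (log2 with the block -1.57 ± 0.19 SE, limma adjusted p = 0.00151). AT5G64120 had 473.4 and 534.2 at 1%, against 1018, 850.2 and 1192 at 21%, and AT5G51890 had 69.4 and 130.9 at 1%, against 229.6, 142.1 and 204.3 at 21%. In these 3 genes every 1% array lay below every control. Prx37 rose with the block, at 214.6 and 347.7 against 135.2, 283.2 and 192.2, values that overlapped. The peroxidase list was added after the files were seen, so its counts are not independent evidence. Without the block 0 of 55 passed, and 1 fell without the 1% array F. The list's median was -0.36 (all genes -0.11), -0.13 with the 1% array A left out and -0.65 with F left out (all genes -0.09 and -0.15).

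Cytosolic ribosomal proteins rose with the block in 5 of 103 named members and fell in 0, where 0.809% of all genes rose and 1.48% fell. AT2G21580 had a signal of 373 and 841.5 at 1%, against 185.3, 215.3 and 376.1 at 21%, with paired differences of 0.99 and 1.15 (log2 with the block 1.12 ± 0.154 SE, limma adjusted p = 0.0022). Of the 103, 70 were above 0 in letter A and 95 in letter F, where 5856 and 7046 of all 13355 genes were. The median was 0.14 (all genes -0.11), 0.54 with the 1% array A left out and -0.25 with F left out. The genes of ribosome biogenesis rose in 4 of 19 named members with the block, among them AT5G15550, at 258 and 192.8 against 159.9, 148.6 and 114 (log2 0.65 ± 0.118 SE, limma adjusted p = 0.0116). Without the block 0 genes of either list passed. Both lists were added after the files were seen, so their counts are not independent evidence.

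With the block 0.809% of all genes rose and 1.48% fell, to be set beside the counts for energy metabolism and other families here. Of 31 loci of sucrose cleavage and glycolysis 5 were named. Of these 1 rose with the block, AT5G08570 (log2 0.59 ± 0.106 SE, limma adjusted p = 0.0116), at 501.1 and 363.6 against 305.1, 417.8 and 251.9. Of 13 named genes of the TCA cycle, 11 of branched-chain amino acid breakdown and 3 of alternative respiration 0 passed in either direction, without or with the block, and their median log2 fold changes were -0.01, -0.10 and -0.27 beside -0.11 for all genes. The median of the TCA cycle was 0.09 with the block, and those of the TCA cycle and of branched-chain amino acid breakdown were 0.16 and 0.07 with each array centred on its median. SDH2-2, a subunit of succinate dehydrogenase, had 78.7 and 332.7 at 1%, against 234.8, 239.8 and 312.1 at 21%, and was low on the 1% array A alone. SWEET sugar transporters had a median of -0.525, or -0.293 with the block, with 0 of 16 called. Their median level, log2(signal + 6), was 4.117 and 4.289 on the 1% arrays A and F. On the 21% arrays A, B and F it was 4.199, 5.362 and 4.282. Glutathione transferases had a median of -0.33 with 1 of 14 lowered with the block, GSTF4 (log2 -0.93 ± 0.127 SE, limma adjusted p = 0.0022). Of 23 cytochrome P450 genes 2 fell with the block, CYP71B28 and CYP71B24, and of 10 xyloglucan endotransglucosylases, enzymes that remodel the wall, XTH21 did. The 6 named histone genes had a median of -0.28 with 0 called.

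Across all 13355 genes the paired differences of A and F, which share no array, were nearly unrelated. Pearson's r across genes was 0.091 and Spearman's rho 0.0291, and 50.1% of genes had the same sign in both pairs. These are descriptions across genes that share arrays and are not independent. At least 2-fold up were 170 genes in A (1.27%) and 214 in F (1.6%), 17 of them in both, and at least 2-fold down were 457 in A (3.42%) and 256 in F (1.92%), 30 in both. There were 5 genes at least 2-fold up in A and 2-fold down in F, and 14 the reverse. Of the genes 2-fold up in A, 56.5% were above 0 in F, where 52.8% of all genes were. Restricting the genes to the 4017 with a signal of at least 50 on all 4 arrays gave r = 0.084, and dropping the dimmest 40% gave r = 0.115.

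**Figure D4:**
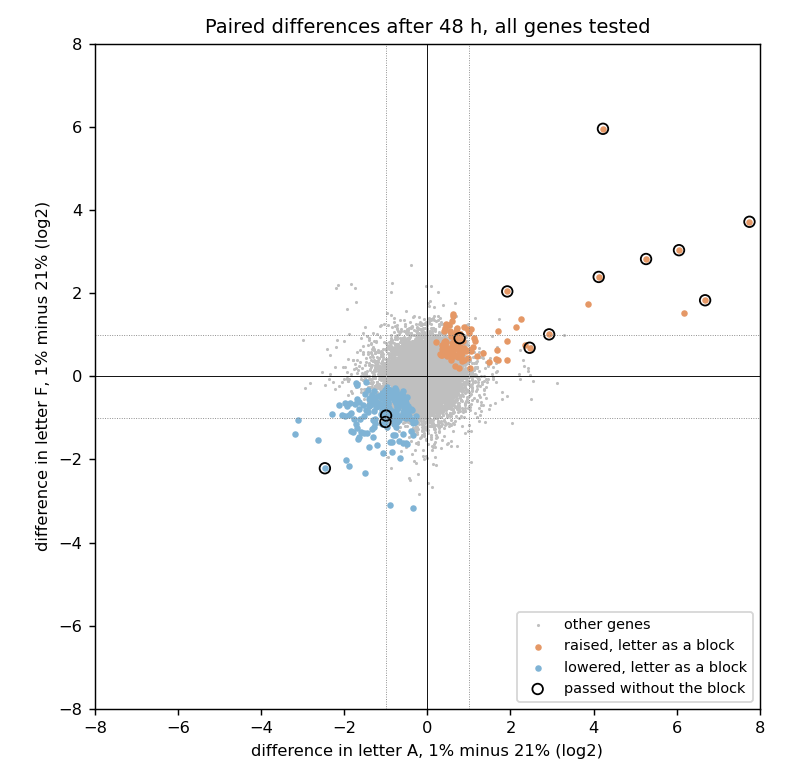
Paired difference, 1% minus 21% (log2), in letter A (horizontal) against letter F (vertical) for all genes tested, with dotted lines at 2-fold, orange and blue points for genes raised and lowered with the letter as a block, and black circles for the 13 genes called without it. The cloud of all genes has only a slight positive slope (r = 0.091), and the raised genes with large differences lie mostly nearer to the axis of letter A.

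The genes that differed most between the pairs were named by rule among those with a signal of at least 50 on 1 or more of the 4 arrays. Higher in A were AT5G10040, AT2G17850, AT3G29970 and AT3G10040, all of the low-oxygen list, with AT1G33050 and AT3G28510. AT1G33050 had a signal of 1376 on the 1% array A and 140.5 on the 1% array F, against 329.5, 309.2 and 310.7 on the 21% arrays, so the 1% arrays lay on opposite sides of 3 closely spaced controls. AT3G28510 had 353.3 and 51.3 at 1%, against 166.7, 932.4 and 233.3 at 21%.

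Higher in F were AT2G33850, AT1G30870, AT4G11190, CML37, PRA1.B4 and AT3G57010. CML37, a calmodulin-like protein, had a signal of 3.60 and 97.4 at 1%, against 11.3, 0.479 and 15.7 at 21%. AT1G30870, of the class III peroxidase list, had 54.2 and 219.9 at 1%, against 225.3, 247 and 67.3 at 21%, so that within each pair the oxygen levels ran in opposite directions. PRA1.B4, a prenylated Rab acceptor, had 4.78 and 142.8 at 1%, against 51.4, 39.6 and 88.1 at 21%. None of these genes passed with or without the block.

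Among the cell wall families, extensins and expansins had unlike values in the pairs, a difference that was not tested, while the xyloglucan endotransglucosylases had medians of -0.18 in A and -0.08 in F. Extensins, wall glycoproteins, had a median difference of -0.25 in A and 1.12 in F over 11 named members. Of these, 2 were at least 2-fold down in A and 7 at least 2-fold up in F (3.42% and 1.6% of all genes). The median level of the extensins, log2(signal + 6), was 5.351 and 6.797 on the 1% arrays A and F. On the 21% arrays A, B and F it was 6.304, 7.054 and 4.833. The 21% array F, the control of pair F, was thus the lowest of these arrays, and the 1% array F lay below the 21% array B. The 1 extensin that rose with the block, AT1G26240, had a signal of 30.7 and 140.4 at 1%, against 12.5, 28.3 and 61.4 at 21%. Of 19 expansins, wall-loosening proteins, 2 were above 0 in A and 13 in F, where 43.8% and 52.8% of all genes were, and 0 passed. The root hair markers named here, 2 of 7, were EXPA18 and EXPA7, and their summed signal was 44.5 and 147.8 at 1%, against 131.8, 208.2 and 74.4 at 21%. It was lowest on the 1% array A and second lowest on the 21% array F, and neither marker was at 0 on any array. Genes of photosynthesis, which mark shoot tissue, had 13 named members, with summed signals of 944 and 1758 at 1%, against 705.2, 909.2 and 2181 at 21%, and were high on both arrays of letter F. Of 14 leaf markers only RCA, rubisco activase, was named, at 29.8 and 167.7 against 28.3, 55.5 and 106.9, and of 10 endodermis markers only GSO1, at 157.3 and 79.3 against 170.6, 174.4 and 90.6. The part of these marker levels in the other results was not tested.

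**Figure D5:**
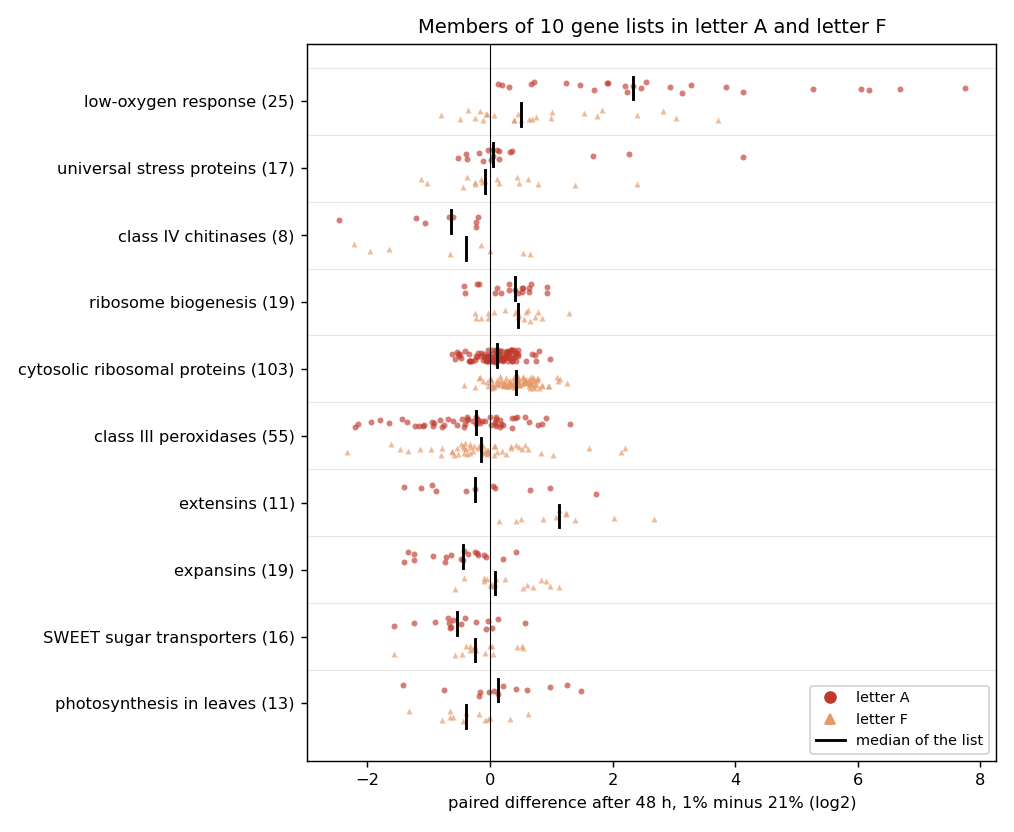
Paired difference after 48 h, 1% minus 21% (log2), of each named member of 10 gene lists, with red circles for letter A above orange triangles for letter F, a black bar at each median, and the number of members in brackets. The low-oxygen list is centred at 2.34 in A and 0.50 in F, and the extensins at -0.25 in A and 1.12 in F. Points are spread vertically for legibility.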

How the data were processed

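The authors deposited 1 signal per probe set and array, a linear intensity made with MAS5 per the submitters' processing notes; its version and genome build are not given in the sources used here. The deposited intensities have a mean of 100 after trimming 2% at each end. They were kept and analysed as log2(signal + 6), where 6 is close to the 20th percentile of all values. Folds on this scale understate changes of dim genes. Of 22810 probe sets, 64 were controls, 13513 had 1 gene in GEO's platform annotation, 503 several and 8730 none. The 13513 were tested and counted as 13355 genes, by the brightest probe set of the 147 genes with several, and 13436 matched RefSeq (TAIR10.1), used for names only.

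limma 3.58.1 in R 4.3.3 fitted 12 group means over 28 arrays (residual degrees of freedom 16, eBayes with trend, two-sided, Benjamini-Hochberg over 13513 probe sets), and was tested on simulated data. The letter as a fixed block (10 degrees of freedom) is given beside it, because after removal of group means all 12 same-letter pairs of 48 h arrays correlated (0.328 to 0.728). Arrays of a group of 2 deviate from its mean as mirror images, so these values are not independent, and correlations between different letters are partly fixed by that arithmetic. Array groups came from titles; the treatment text of the 8% array B at 48 h also carries the word control, and it was kept at 8%.

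Named genes were all genes called, the 12 with the largest change in each direction with the block, up to 4 per list by p, the 6 most different between pairs each way, and genes called in the interaction or against 4%; further list members were named after their values were seen. The members and lists were chosen with earlier results of these data known. The lists of universal stress proteins, ribosome biogenesis, ribosomal proteins, peroxidases and extensins, and the families found by symbol (expansins, xyloglucan endotransglucosylases, glutathione transferases, cytochrome P450, SWEET, defensins, photosynthesis, histones), were added after seeing the files. Of 36 lists 9 had no named member and the list of ethylene signalling had 1, EIN3, which did not pass. Roles of loci without a symbol are those of the lists. Alternatives were other scalings, pseudocounts, filters, array subsets, blocks and each array left out.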

Additional observations from a re-analysis of the deposited data

Results flagged for a closer look

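For 7 genes the response to 1% oxygen differed between 48 h and 2 h by a test of that difference (limma, interaction of oxygen and duration). The difference, 48 h minus 2 h on the log2 scale, was 1.71 for LCR67, -2.33 for AT2G43590, -3.49 for AT3G23170, -2.83 for AT3G27220, -2.01 for AT4G17260, -3.35 for AT4G30380 and -2.96 for AT5G44730. Of the 15 alternatives run for each, AT4G17260, AT4G30380 and AT5G44730 passed all, AT3G23170 missed the threshold with quantile normalization (limma adjusted p = 0.103), and LCR67, AT2G43590 and AT3G27220 missed it in 8, 9 and 11.

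Probe sets without a gene name hold a signal not described above. In a fit of all probe sets that are not controls, 10 of the 8730 without a name were higher at 1% than at 21% after 48 h and 9 were lower, and with the letter as a block 99 were higher and 186 lower.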

How the results depend on the processing

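With the letter as a fixed block over all arrays 108 genes were higher and 197 lower, as a random block 87 and 153, and as a block within each duration, chosen after seeing the data, 96 and 159. In fits of the 48 h arrays alone 0 were higher and 0 lower (266 with an unadjusted p under 0.05), with the block 1 and 2, and with the 5 arrays of the comparison alone 0 and 0 (193). These fits have fewer residual degrees of freedom, 6, 4 and 3, and take the spread from fewer arrays. The cause of the lower counts was not tested. A pseudocount of 1.5 gave 5 lower, leaving out the dimmest 40% gave 6 lower, and leaving out the letter B arrays, also chosen later, gave 4 higher. Leaving out 1 array gave 3 to 31 higher and 0 to 26 lower, where an array left alone in its group was assumed to vary like the others. For the difference between 48 h and 2 h the block gave 13 higher and 50 lower, a pseudocount of 1.5 gave 0 higher, and leaving out 1 array gave 0 to 3 higher and 4 to 23 lower. Against 4%, quantile normalization, centring, a pseudocount of 1.5 and the block gave 0 lower, and leaving out 1 array gave 0 to 5 higher and 0 to 58 lower. AT1G62510 (-1.29) ranged from -3.19 to 0.616 with 1 array left out, the positive value without the 1% array A (limma adjusted p = 0.962). Over 28 named genes and their alternatives, 382 of 529 calls were on the same side, 96 lost the threshold and 50 gained it. The correlation of the pairs ranged from 0.075 to 0.115. The median of all genes was -0.11, -0.0149 with the block, -0.00337 with quantile normalization and 0.0621 with centring, and the medians of the TCA cycle, autophagy, branched-chain amino acid, expansin, xyloglucan endotransglucosylase and cytochrome P450 lists turned positive with centring. Signals at the bottom of the scale have no detection calls, which limits their order.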
